A study of Mus musculus with 12 samples.

Results

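The genes described are 10 members of the tight junction machinery measured in mouse dorsal skin: the claudins Cldn1, Cldn3, Cldn4, Cldn5, Cldn7, Cldn8 and Cldn23 and their partners Ocln, Tjp1 and Cgn. They were taken by name from the 36400 genes listed, with earlier results of these data known. Counts of members set beside shares of all genes therefore describe a list that was not blind to these data. All 10 were among the 21890 tested genes, those averaging 0.1 FPKM or more across the 12 libraries. FPKM are fragments scaled by transcript length and by sequencing depth. Cldn3 and Cldn23 had been singled out by the study on these same samples, so their directions are not independent evidence, and the other claudins are of first interest here. Skin RNA came from female BALB/c mice, 6 weeks old when obtained, with 3 libraries in each of 4 groups. The study describes 6 mice a group. Which of them gave the libraries, and whether each library is 1 mouse, is not stated in the sources used here. The control group, labelled Solvent, received only the vehicle of acetone and olive oil. The DNCB group was sensitised with 1% 2,4-dinitrochlorobenzene, a contact allergen, and challenged with 0.5% DNCB, which gives lesions resembling atopic dermatitis. The scMSC and scivMSC groups received the same DNCB schedule and 4 injections of 2000000 human umbilical cord mesenchymal stem cells (MSCs) between day 13 and day 25, given as 100 µL under the dorsal skin in the scMSC group and as 50 µL under the skin plus 50 µL into the tail vein in the scivMSC group. Backs of all groups were shaved before sensitisation and again later, and skin was collected on day 30. No injection of cell-free solution into the DNCB group is stated in the sources used here, so the injected cells and the injection itself cannot be told apart.

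Tight junctions join neighbouring epithelial cells near their surface and limit what passes between them. Claudins are the membrane proteins whose outer loops pair across the gap and set how tight and how ion-selective the seal is. Occludin, encoded by Ocln, lies in the same strands, while the ZO-1 scaffold encoded by Tjp1 and cingulin encoded by Cgn tie the strands to the actin cytoskeleton on the inner side. In the epidermis the seal sits in the granular layer beneath the cornified layer, and mice lacking Cldn1 lose water through the skin and die soon after birth.

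Cldn4 and Cldn1 were the claudins with the highest levels in this skin, Cldn3 lies next to Cldn4 in the genome, and Cldn5, a claudin of blood vessels, had the group means that lay closest together, so the 250 bases before the start of each of these 4 genes are shown. The sequences are from RefSeq on GRCm38.p6, written 5′ to 3′ along the strand of the gene. The windows are chr16:26371840-26372089 on the minus strand for Cldn1, chr5:134946935-134947184 on the minus strand for Cldn4, chr5:134985964-134986213 on the plus strand for Cldn3 and chr16:18776597-18776846 on the plus strand for Cldn5. Capitals mark the letters of the GC box (GGGCGG), the E-box read by Snail family repressors (CACCTG) and the AP-1 site (TGACTCA), each searched on both strands.
Cldn1: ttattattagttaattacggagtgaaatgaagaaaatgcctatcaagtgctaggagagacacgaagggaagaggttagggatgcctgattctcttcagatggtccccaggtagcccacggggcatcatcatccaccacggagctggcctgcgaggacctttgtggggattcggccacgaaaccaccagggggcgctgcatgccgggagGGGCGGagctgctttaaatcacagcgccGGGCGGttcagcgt
Cldn4: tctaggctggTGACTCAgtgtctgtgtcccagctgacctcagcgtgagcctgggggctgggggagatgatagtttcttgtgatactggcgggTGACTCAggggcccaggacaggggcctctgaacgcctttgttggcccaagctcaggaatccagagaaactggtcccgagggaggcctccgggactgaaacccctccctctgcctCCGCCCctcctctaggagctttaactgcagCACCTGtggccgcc
Cldn3: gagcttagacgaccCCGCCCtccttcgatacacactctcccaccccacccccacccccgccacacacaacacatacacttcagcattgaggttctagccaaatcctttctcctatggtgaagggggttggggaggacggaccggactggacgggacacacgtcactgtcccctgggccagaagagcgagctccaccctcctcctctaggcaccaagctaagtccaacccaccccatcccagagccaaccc
Cldn5: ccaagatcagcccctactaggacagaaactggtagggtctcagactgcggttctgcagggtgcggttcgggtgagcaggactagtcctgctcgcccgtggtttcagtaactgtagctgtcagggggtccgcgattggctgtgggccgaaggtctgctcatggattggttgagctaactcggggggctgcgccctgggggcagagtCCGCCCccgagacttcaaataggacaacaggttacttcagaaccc

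Of the 10 genes, 8 had a start in the table, and Cldn8 and Cldn23 did not. Cldn7 and Ocln had 2 starts each, so that these genes gave 10 windows. A GC box was in 9 of the 10 windows and in 32.7% of the 32851 windows of the same length. The Snail E-box was in 3 of the 10, belonging to Cldn4, Cldn7 and Ocln, and in 17.2% of all windows. The AP-1 letters were in 4.46% of all windows and in 1 of the 10, that of Cldn4, at first-base positions of -240 and -158 from the start. The grainyhead letters AACCGGTT were in 0.116% of all windows and in 0 of the 10. No pair of these motifs overlapped in the windows shown. A match gives letters only and is no evidence of binding.

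In GRCm38 the Cldn4 gene spans chr5:134945119-134946934 and the Cldn3 gene chr5:134986214-134987472, facing away from each other with 39.3 kb between them. Cldn1 (chr16:26356642-26371841), Cldn5 (chr16:18776847-18778262) and Cldn8 (chr16:88560828-88563183) share a chromosome but not a neighbourhood. Cldn7 lies at chr11:69964779-69967885, Cldn23 at chr8:35824712-35826559, Ocln at chr13:100496507-100552718, Tjp1 at chr7:65296165-65527696 and Cgn at chr3:94760069-94786492. Cldn3, Cldn4, Cldn5, Cldn8 and Cldn23 have a single exon each. The file's values cover whole genes. Cldn3 overlaps the antisense gene Wbscr25, and Tjp1 overlaps Gm44792, Gm44794 and, on the other strand, Gm44795. The strandedness of the counting is not given in the sources used here, so reads of these 2 members and their overlapping genes may not be told apart.

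The libraries held between 63877153 and 75134001 estimated counts. Keratinocyte markers were high in all 12 libraries, as the label dorsal skin asks: the 10 genes of differentiated keratinocytes summed to between 4107 and 11938 FPKM and the 7 of basal keratinocytes to between 1771 and 10497 FPKM. Control replicate 2 stood apart by its hair keratins (Krt71 at 116 FPKM against 3.31 and 0.486 in the other controls), scivMSC replicate 2 by its stress keratins (Krt6b at 1021 FPKM against 72.7 and 117) and scivMSC replicate 3 by low fibroblast genes (a sum of 160 FPKM for 7 genes against 895 and 1114). Counts of members are therefore given also without these 3 libraries. Control replicate 3 stood apart by its macrophage genes (a sum of 808 FPKM for 8 genes against 208 and 225), and the count in DNCB against control is given without it too. Scaling by library size alone in place of the trimmed mean (TMM) moved the median log2 fold change of all genes in DNCB against control from 0.02 to 0.20, and the calls from 2833 higher and 2708 lower to 4235 higher and 2062 lower.

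After DNCB, 6 of the 10 genes were lower than in control (Cldn1, Cldn3, Cldn4, Cldn23, Ocln and Cgn), 1 was higher (Tjp1) and 3 did not pass, where 25.3% of all genes tested passed (12.9% higher and 12.4% lower). After MSC treatment, 7 of the 10 were higher and 0 lower in scMSC than in DNCB, beside 12.7% of all genes (6.95% higher and 5.77% lower), and 6 were higher and 0 lower in scivMSC, beside 8.16% (4.56% higher and 3.6% lower). The test was edgeR's quasi-likelihood test on the estimated counts, with n = 3 libraries a group. A gene passed at a Benjamini-Hochberg adjusted p under 0.05 over all 21890 genes, as holds for every adjusted p below. The median log2 fold change was -0.75 in DNCB against control, 2.01 in scMSC against DNCB and 1.30 in scivMSC against DNCB, and 0.02 over all genes in each. The MSC comparisons share the 3 DNCB libraries.

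With the added demand of a change over 2-fold, 4 of the 10 passed in DNCB against control, namely Cldn3, Cldn23, Ocln and Cgn, beside 14.2% of all genes. The 7 and the 6 of the MSC comparisons all exceeded 2-fold, beside 8.5% and 5.46% of all genes. Without the 3 libraries that stood apart, 5 passed in DNCB against control, 7 in scMSC and 3 in scivMSC against DNCB, beside 19.9%, 11.6% and 1.5% of all genes. In DNCB against control 4 passed without control replicate 3, DNCB replicate 2 or DNCB replicate 3. The share of all genes passing was 18.5% without DNCB replicate 2 and 17.8% without DNCB replicate 3. Without control replicate 3 the calls of Cldn1, Cldn4 and Ocln were lost there (adjusted p = 0.0881, 0.125 and 0.0591), while 22.2% of all genes passed.

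Cldn1, the claudin on which the epidermal water barrier depends, was at 22.5, 31.5 and 31.6 FPKM in the 3 control libraries, at 23.9, 19.4 and 22.0 FPKM in the DNCB group, at 56.6, 73.6 and 55.1 FPKM in the scMSC group, and at 58.6, 47.1 and 43.5 FPKM in the scivMSC group. Every library of both MSC treatment groups lay above every control and DNCB library, while the control and DNCB libraries overlapped. Against the DNCB group, Cldn1 rose 2.9-fold in scMSC (log2 fold change 1.54 ± 0.19, SE, adjusted p = 0.00199) and 2.29-fold in scivMSC (1.20 ± 0.19, adjusted p = 0.00618).

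Cldn1 also stood above the control level. In scMSC it was 1.95-fold higher than control (log2 fold change 0.97 ± 0.19, adjusted p = 0.00574), and in scivMSC 1.54-fold higher (0.63 ± 0.18, adjusted p = 0.0479), the latter lost in 16 of 24 alternative analyses. In the DNCB group Cldn1 fell by 0.57 on the log2 scale (SE 0.18, 95% interval -0.98 to -0.16, adjusted p = 0.0431), but this call was lost in 13 of 24 alternatives, among them scaling by library size alone (-0.39, adjusted p = 0.132), with adjusted p-values from 0.0177 to 0.139.

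Cldn4, a sealing claudin expressed in the upper layers of the epidermis and in many glands, gave the highest level of any claudin. It was at 28.6, 36.1 and 50.3 FPKM in control, at 21.5, 20.6 and 26.1 FPKM in DNCB, at 82.7, 168 and 109 FPKM in scMSC, and at 92.8, 53.7 and 59.4 FPKM in scivMSC. The groups did not overlap except for the MSC treatment groups, which overlapped each other. Cldn4 rose 5.43-fold in scMSC against DNCB (log2 fold change 2.44 ± 0.32, adjusted p = 0.00199) and 3.03-fold in scivMSC (1.60 ± 0.31, adjusted p = 0.0134). The scivMSC call was lost in 4 of 24 alternatives, with adjusted p up to 0.0586, namely without DNCB replicate 1, DNCB replicate 2 or scivMSC replicate 1, and without the 3 libraries that stood apart.

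Relative to control, Cldn4 was 2.85-fold higher in scMSC (log2 fold change 1.51 ± 0.31, adjusted p = 0.00738). The scivMSC difference from control, 0.67 ± 0.30, did not pass (adjusted p = 0.175). In the DNCB group Cldn4 fell by 0.93 on the log2 scale (SE 0.30, adjusted p = 0.0446), again a call lost in 13 of 24 alternatives, with adjusted p-values from 0.0136 to 0.125.

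Cldn8, best known as the partner of Cldn4 in the chloride barrier of the kidney collecting duct, was low in the groups without MSCs. Its level was 0.897, 1.28 and 0.81 FPKM in control and 1.02, 0.943 and 0.701 FPKM in DNCB, 2.78, 5.16 and 6.57 FPKM in scMSC, and 2.29, 1.06 and 2.46 FPKM in scivMSC. The control and DNCB libraries overlapped, all 3 scMSC libraries lay above the other 9, and scivMSC replicate 2 lay within the control range. Cldn8 rose 5.56-fold in scMSC against DNCB (log2 fold change 2.47 ± 0.43, adjusted p = 0.00483) and was 4.33-fold higher there than in control (2.12 ± 0.42, adjusted p = 0.00682). In scivMSC the difference from DNCB was 1.14 ± 0.41 (95% interval 0.24 to 2.05) and did not pass (adjusted p = 0.121). It passed without scivMSC replicate 2 (1.45, adjusted p = 0.0428). The DNCB difference from control was -0.36 ± 0.41 (adjusted p = 0.575).

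Cldn7, a claudin of the lateral membrane of many epithelia, was near the lower end of what was measured, with between 12 and 182 estimated counts a library. It was at 0.127, 0.286 and 0.0998 FPKM in control, 0.165, 0.0648 and 0.27 FPKM in DNCB, 0.578, 0.586 and 1.17 FPKM in scMSC, and 0.143, 0.256 and 0.511 FPKM in scivMSC. The scMSC libraries lay above all others. The log2 difference of scMSC from DNCB was 2.18 ± 0.68 (95% interval 0.67 to 3.69) and did not pass (adjusted p = 0.0624). It passed in 6 of 24 alternatives, DESeq2 among them (adjusted p = 0.0104), over a range of adjusted p from 0.0104 to 0.183. The scivMSC difference from DNCB was 0.84 ± 0.67 (adjusted p = 0.512).

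Cldn5, the claudin of vascular endothelium and of the blood-brain barrier, passed in none of the comparisons, and neither did Cldn7. Cldn5 was at 11.6, 6.08 and 8.03 FPKM in control, 6.51, 8.32 and 9.6 FPKM in DNCB, 13.1, 5.15 and 5.38 FPKM in scMSC, and 12.1, 9.21 and 5.7 FPKM in scivMSC, with all 4 groups overlapping. Its log2 difference was -0.26 ± 0.38 in DNCB against control (95% interval -1.10 to 0.59), -0.04 ± 0.38 in scMSC against DNCB (-0.89 to 0.80) and 0.14 ± 0.38 in scivMSC against DNCB (-0.70 to 0.99), so changes of up to about these bounds remain possible at this spread.

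Of the 10 other endothelial markers listed, 5 were higher and 0 lower in DNCB against control (12.9% and 12.4% of all genes). Of these markers 7 were lower and 0 higher in scMSC against DNCB (5.77% and 6.95% of all genes). In scivMSC against DNCB 2 of the markers were lower and 0 higher (3.6% and 4.56% of all genes). They summed to between 52.1 and 75.4 FPKM in control, 113 and 143 FPKM in DNCB, 44.8 and 78.8 FPKM in scMSC, and 36.8 and 90.9 FPKM in scivMSC, with none at 0. Pecam1, an adhesion molecule of endothelial cells, rose in DNCB (log2 fold change 0.96 ± 0.30, adjusted p = 0.0385) and fell in scMSC against DNCB (-1.04 ± 0.30, adjusted p = 0.0459), while Cdh5, the endothelial cadherin, differed by 0.69 ± 0.29 (adjusted p = 0.116) and -1.17 ± 0.30 (adjusted p = 0.0272). The difference between Cldn5 and these genes was not tested. In whole skin, fewer cells of a type and less RNA per cell cannot be told apart, for Cldn5 or for any gene here.

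**Figure D1:**
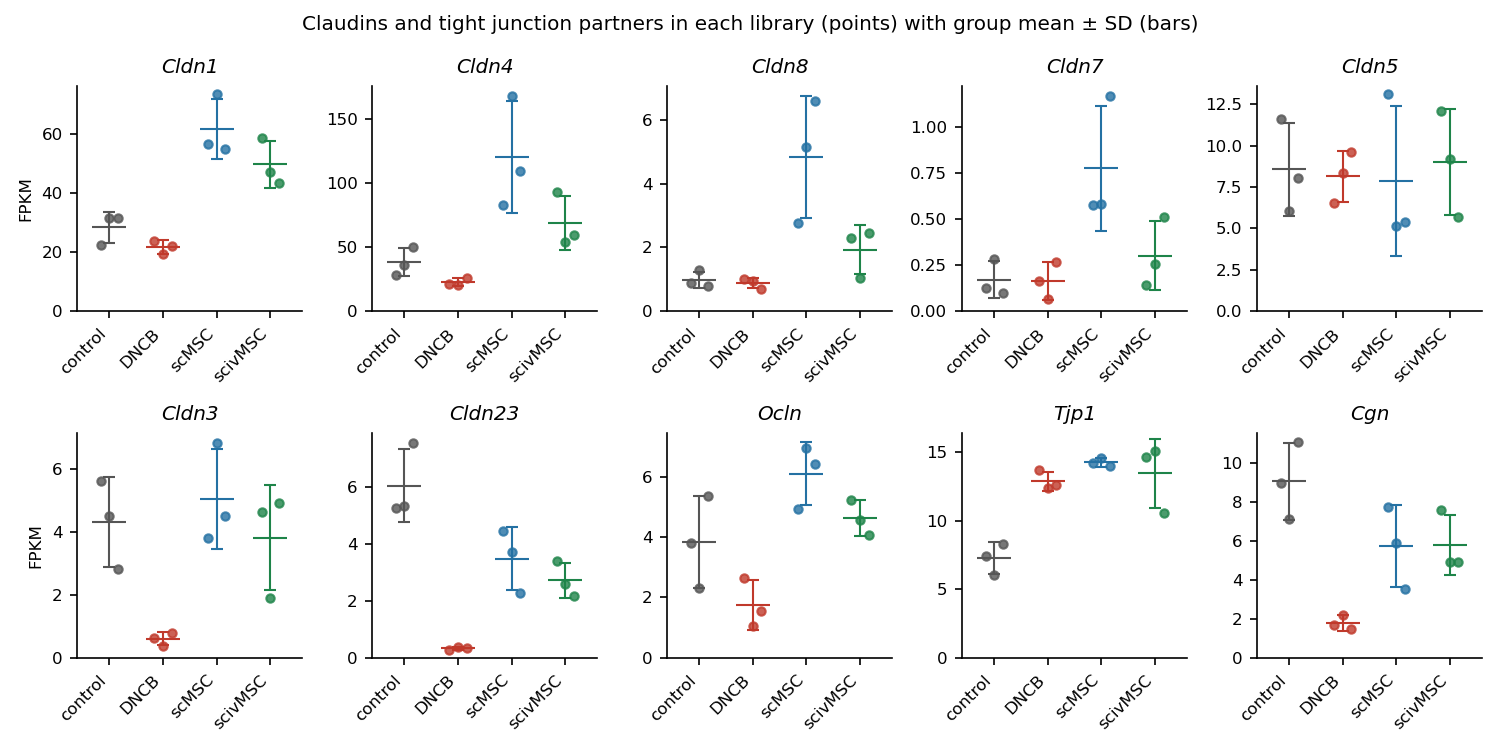
FPKM (vertical axes, each from 0) of the 10 genes in the 12 libraries, by group, with points for single libraries and bars for the mean and SD of 3. Cldn1, Cldn4 and Cldn8 sit highest in scMSC, Cldn3, Cldn23, Ocln and Cgn sit lowest in DNCB, Tjp1 sits lowest in control, and the 4 groups of Cldn5 overlap.

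Cldn3 and Cldn23 moved most in the DNCB group. Cldn3, a sealing claudin and with Cldn4 a receptor of a clostridial toxin, was at 5.63, 4.51 and 2.81 FPKM in control, 0.641, 0.38 and 0.795 FPKM in DNCB, 3.8, 6.84 and 4.52 FPKM in scMSC, and 4.64, 1.91 and 4.92 FPKM in scivMSC. All 3 DNCB libraries lay below the other 9. Cldn3 fell by 3.02 on the log2 scale in DNCB (SE 0.49, adjusted p = 0.00181) and rose by 3.09 ± 0.49 in scMSC (adjusted p = 0.00337) and 2.67 ± 0.48 in scivMSC (adjusted p = 0.0102), the last of which had an adjusted p of 0.0502 without the 3 libraries that stood apart. Its differences from control were 0.07 ± 0.45 in scMSC and -0.35 ± 0.45 in scivMSC, and neither passed.

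Cldn23, a claudin of differentiated epithelia, was at 5.27, 5.35 and 7.56 FPKM in control, 0.272, 0.376 and 0.362 FPKM in DNCB, 4.45, 3.74 and 2.28 FPKM in scMSC, and 3.4, 2.6 and 2.19 FPKM in scivMSC. It fell by 4.33 on the log2 scale in DNCB (SE 0.32, adjusted p = 0.000288) and was 10.4-fold higher in scMSC and 8.02-fold higher in scivMSC than in DNCB (log2 fold changes 3.38 ± 0.31 and 3.00 ± 0.30, adjusted p = 0.000718 and 0.0018). Unlike Cldn3, its libraries in both MSC treatment groups lay below all control libraries, by 0.95 ± 0.28 on the log2 scale in scMSC (adjusted p = 0.0378, lost in 14 of 24 alternatives) and 1.32 ± 0.28 in scivMSC (adjusted p = 0.0134, lost in 2). Those 2 were without scivMSC replicate 2 (adjusted p = 0.0541) and without the 3 libraries that stood apart (adjusted p = 0.263). Whether Cldn3 and Cldn23 differed from each other was not tested.

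Cldn3 and Cldn4, for all their closeness on the chromosome, had unlike levels against control. Cldn3 was 8.11-fold lower in DNCB and near control in scMSC, whereas Cldn4 was 1.9-fold lower in DNCB and 2.85-fold above control in scMSC, a contrast between the genes that was not tested.

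The partners of the claudins divided. Ocln was at 3.81, 2.33 and 5.37 FPKM in control, 2.66, 1.05 and 1.56 FPKM in DNCB, 4.93, 6.95 and 6.43 FPKM in scMSC, and 5.24, 4.58 and 4.06 FPKM in scivMSC. Control and DNCB overlapped through control replicate 2 and DNCB replicate 1, while both MSC treatment groups lay above DNCB. Ocln fell by 1.30 on the log2 scale in DNCB (SE 0.35, adjusted p = 0.0187) and was 3.56-fold higher in scMSC than in DNCB (1.83 ± 0.35, adjusted p = 0.00733) and 2.65-fold higher in scivMSC (1.41 ± 0.35, adjusted p = 0.0325). The DNCB call was lost in 4 of 24 alternatives (adjusted p up to 0.0676) and the scivMSC call in 8 (up to 0.123), each time with the same direction. Among the single libraries whose removal ended them were control replicate 3, DNCB replicates 2 and 3 for the former and DNCB replicates 2 and 3 and each scivMSC library for the latter.

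Cgn was at 9.01, 7.13 and 11.1 FPKM in control, 1.7, 2.22 and 1.46 FPKM in DNCB, 7.77, 5.89 and 3.55 FPKM in scMSC, and 7.58, 4.93 and 4.92 FPKM in scivMSC. The DNCB libraries lay below all others. Cgn was 5.72-fold lower in DNCB than in control (log2 fold change -2.52 ± 0.30, adjusted p = 0.000647) and 3.24-fold higher in each MSC treatment group than in DNCB (1.70 ± 0.29 in both, adjusted p = 0.00477 in scMSC and 0.0088 in scivMSC). It remained 0.82 ± 0.28 below control on the log2 scale in both, which did not pass (adjusted p = 0.0706 and 0.0859).

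Tjp1 was the member that rose in DNCB. It was at 7.43, 6.04 and 8.34 FPKM in control, 13.7, 12.4 and 12.6 FPKM in DNCB, 14.2, 14.6 and 14.0 FPKM in scMSC, and 14.7, 15.1 and 10.6 FPKM in scivMSC, and every control library lay below the other 9. The log2 rise over control was 0.65 ± 0.13 in DNCB (adjusted p = 0.00562), 0.82 ± 0.13 in scMSC (adjusted p = 0.00281) and 0.71 ± 0.13 in scivMSC (adjusted p = 0.00873, and 0.0735 without the 3 libraries that stood apart). The scMSC and scivMSC groups differed from DNCB by 0.17 ± 0.13 (95% interval -0.12 to 0.46) and 0.06 ± 0.13 (-0.23 to 0.36), neither passing.

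**Figure D2:**
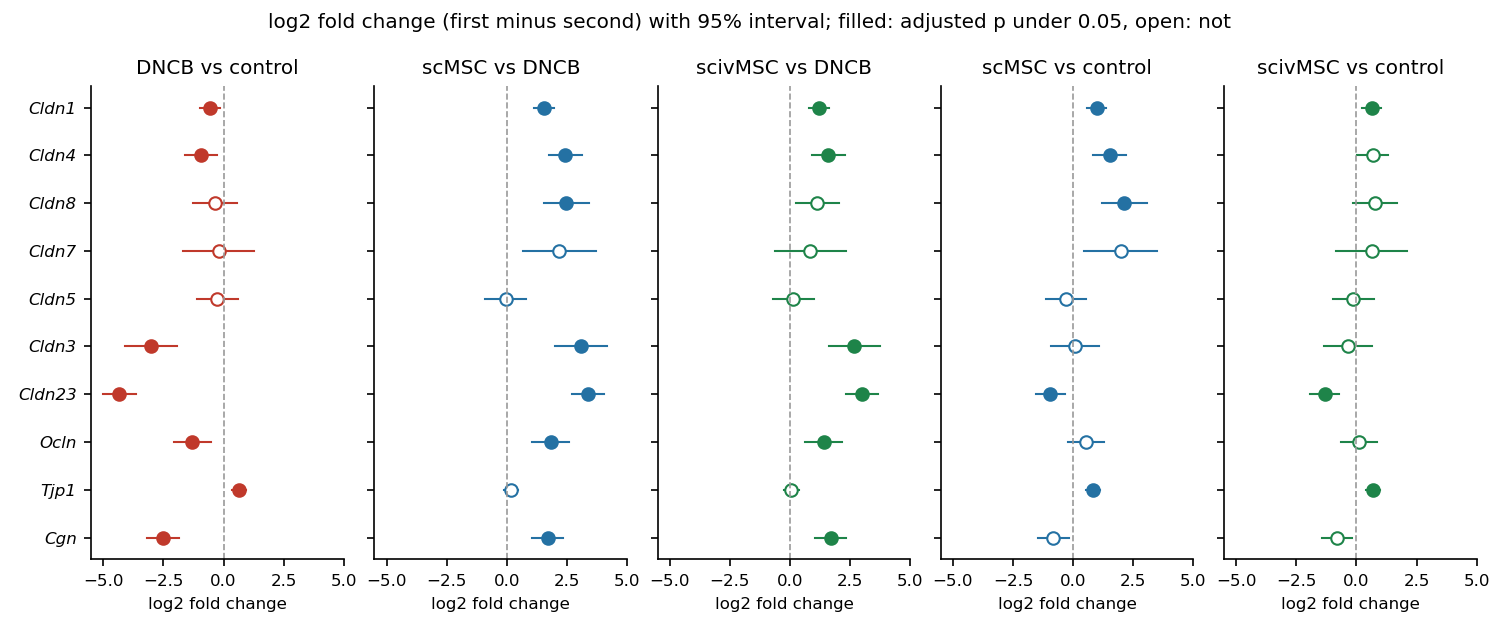
log2 fold change (horizontal axes) of the 10 genes in 5 comparisons, with 95% intervals, filled where the adjusted p is under 0.05. In DNCB against control 6 genes lie left of 0 and Tjp1 right of it among the filled points, and in both MSC groups against DNCB every filled point lies right of 0.

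Against control, scMSC gave 4 higher (Cldn1, Cldn4, Cldn8 and Tjp1) and 1 lower (Cldn23), beside 18.5% of all genes (10.4% higher and 8.12% lower), and 4 passed without the 3 libraries, beside 13% of all genes. The scivMSC group gave 2 higher (Cldn1 and Tjp1) and 1 lower (Cldn23), beside 13.2% of all genes (7.11% higher and 6.13% lower). That count was 1 when the 6 libraries were fitted alone or without scivMSC replicate 2, and 0 without the 3 libraries (beside 1.4% of all genes), where 1 scivMSC library remained and was assumed to vary like the others. The share of all genes passing there was 5.04% with the 6 libraries fitted alone and 6.12% without scivMSC replicate 2. By DESeq2, 7 members passed in scMSC and 4 in scivMSC, beside 26.4% and 21% of the genes it gave an adjusted p. Over 2-fold, 2 passed in scMSC and 1 in scivMSC, beside 9.32% and 6.85% of all genes.

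Between the routes of injection no member passed, as was so for all but 1 of the 21890 genes (0.00457%) by edgeR. DESeq2 passed 0 members and 138 genes (0.658%). By edgeR, 2 of the 10 had an unadjusted p under 0.05, beside 7.5% of all genes. Those 2 were Cldn8 and Cldn4. Cldn8 was lower in scivMSC by 1.33 on the log2 scale (95% interval -2.24 to -0.43 for scivMSC minus scMSC, adjusted p = 0.571), with no overlap of the libraries. For Cldn4 the difference was -0.84 (-1.51 to -0.18, adjusted p = 0.613), for Cldn7 -1.34 (-2.81 to 0.12), for Cldn1 -0.34 (-0.75 to 0.06) and for Cldn5 0.18 (-0.66 to 1.03). The intervals leave room for a difference of more than 2-fold for Cldn8, Cldn4, Cldn7 and Cldn5 and not for Cldn1.

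The order of the group means was DNCB, control, scivMSC, scMSC for Cldn1, Cldn4, Cldn7, Cldn8 and Ocln. Along it all neighbours of Cldn1 except scivMSC and scMSC passed. For Cldn4 and Ocln the step from DNCB to control alone passed, and for Cldn7 and Cldn8 no step between neighbours passed. Cldn3 and Cldn23 shared the low DNCB end, with control the highest group for Cldn23 and for Cgn.

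The make-up of the claudin family was computed from the FPKM of all 20 claudin genes in the file. Their sum was 97.3 ± 11.2 FPKM (SD, n = 3) in the controls, 66.5 ± 4.7 after DNCB alone, 221 ± 55.2 after scMSC and 151 ± 34.8 after scivMSC, with no overlap between DNCB and any other group. An exact two-sided permutation test gave p = 0.1 for DNCB against each of them (0.18 after adjustment over 9 tests), which is the smallest that 3 against 3 libraries can give. Cldn1 and Cldn4 together made up 68.2% ± 8.22 of the sum in the controls, 66.9% ± 1.76 after DNCB alone, 81.6% ± 3.82 after scMSC and 78.1% ± 1.07 after scivMSC. Every MSC library, at 77% or more, lay above every control and DNCB library, of which the highest was at 75.2%.

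Taken singly, the share of Cldn4 was 38.9% ± 6.66 in the controls, 34.1% ± 2.23 after DNCB alone, 53.3% ± 6.66 after scMSC and 44.9% ± 3.46 after scivMSC (DNCB against each MSC group exact permutation p = 0.1, adjusted 0.18). The share of Cldn1 was 29.2% ± 3.33, 32.8% ± 2.7, 28.4% ± 2.85 and 33.2% ± 3.01 in the same order, with overlapping libraries. The ratio of Cldn4 to Cldn1, both per length, was 1.34 ± 0.23 in the controls, 1.05 ± 0.141 after DNCB alone, 1.91 ± 0.413 after scMSC and 1.36 ± 0.222 after scivMSC. Cldn5 made up 9.04% ± 3.83 in the controls, 12.3% ± 2.14 after DNCB alone, 3.93% ± 2.94 after scMSC and 5.91% ± 1.48 after scivMSC, a share that was highest where the sum was lowest, while its own level passed no test. Cldn23 went from 6.2% ± 0.699 in control to 0.509% ± 0.1 in DNCB, 1.65% ± 0.725 in scMSC and 1.81% ± 0.19 in scivMSC. Cldn3, Cldn7 and Cldn8 made up at most 6.51%, 0.586% and 3.3% of the sum in any library.

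**Figure D3:**
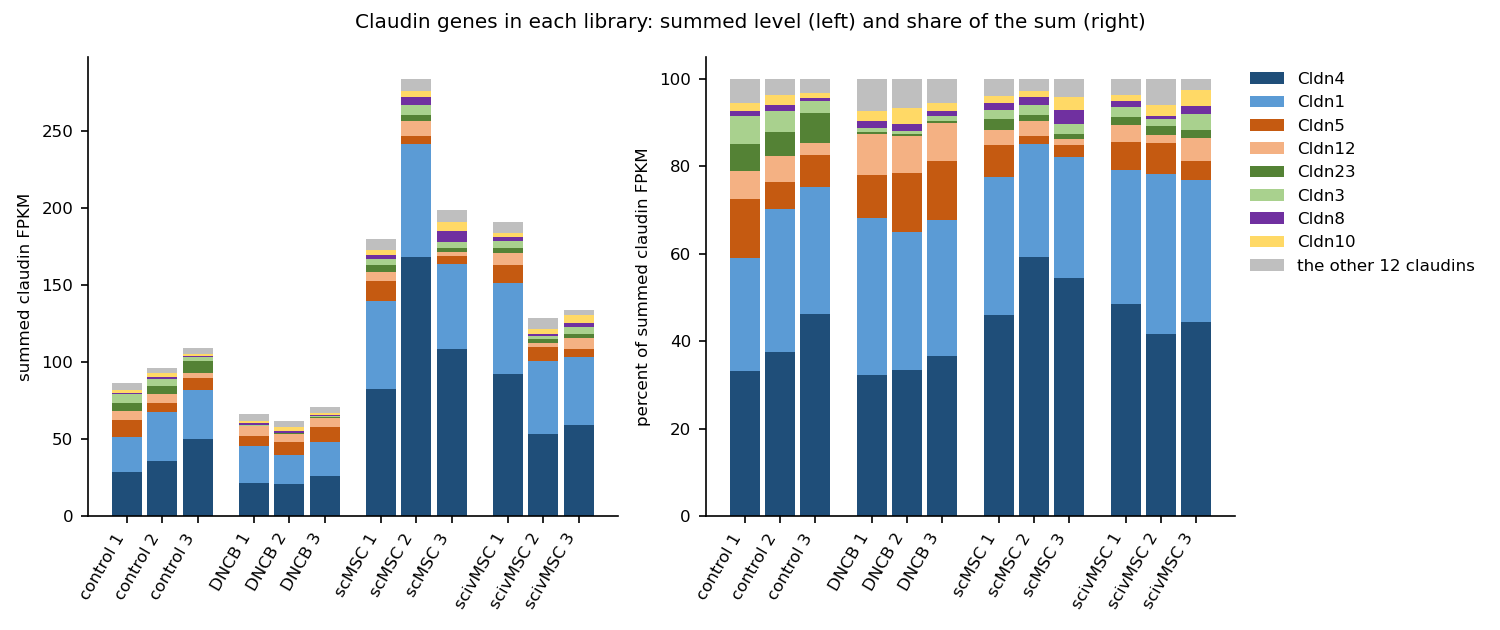
Summed FPKM of the 20 claudin genes in each library (left, from 0) and the percent of that sum taken by each (right), stacked by gene, with 12 minor claudins pooled. The scMSC bars reach 180 to 284 FPKM and the DNCB bars 61.7 to 71.1 FPKM, and Cldn4 with Cldn1 fills at least 59.1% of every bar.

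Of 22 other claudins listed, 13 were in the file and 9 were tested. In DNCB against control 1 of these was higher and 1 lower. In scMSC against DNCB 1 was higher and 0 lower, and in scivMSC against DNCB 0 passed. The shares of all genes passing in these comparisons were 25.3%, 12.7% and 8.16%. The claudins named next lie outside the rule for naming and were chosen after their values were seen. Cldn17 was listed at 0 in all 3 control libraries and at 0.129, 0.169 and 0.199 FPKM in DNCB, on 12 to 19 estimated counts, and Cldn19, a claudin of Schwann cells and kidney, fell from 1.17 ± 0.662 to 0.217 ± 0.123 FPKM (SD). Cldn10, a claudin of sweat glands and kidney, was at 1.75 ± 0.539 FPKM in DNCB and 4.22 ± 1.58 in scMSC (log2 fold change 1.29 ± 0.38, adjusted p = 0.0486). The most abundant of them, Cldn12, was at 4.76 ± 1.5 FPKM in control and 5.94 ± 0.633 in DNCB.

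Among 37 other tight junction genes, 4 were higher, 10 lower and 23 did not pass in DNCB against control (median log2 fold change -0.24). Of all genes 12.9% were higher and 12.4% lower there. In scMSC against DNCB 13 of the 37 were higher, 3 lower and 21 did not pass (median 0.25), beside 6.95% higher and 5.77% lower of all genes. In scivMSC against DNCB 8 were higher, 2 lower and 27 did not pass (median 0.16), beside 4.56% higher and 3.6% lower. The scaffold Tjp3, encoding ZO-3, fell from 10.6 to 3.34 FPKM in DNCB (log2 fold change -1.83 ± 0.21, adjusted p = 0.000523) and rose in scMSC (0.88 ± 0.20, adjusted p = 0.017) and scivMSC (1.36 ± 0.20, adjusted p = 0.00551). Marveld3, a relative of occludin, fell by 1.33 in DNCB (SE 0.26, adjusted p = 0.00448) and rose by 1.49 ± 0.26 in scMSC and 1.22 ± 0.26 in scivMSC (adjusted p = 0.00501 and 0.0195). Amot, angiomotin, and Ybx3, encoding the ZO-1-associated factor ZONAB, also fell in DNCB, by 1.44 (SE 0.38, adjusted p = 0.0192) and 0.99 (SE 0.20, adjusted p = 0.00477), and neither passed in either MSC group against DNCB.

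The 4 of the 37 other tight junction genes that rose in DNCB, as Tjp1 did, stood beside 12.9% of all genes. Arhgef2, encoding the exchange factor GEF-H1 that cingulin binds at junctions, rose by 1.11 ± 0.17 on the log2 scale (adjusted p = 0.00153) and fell in scMSC (-0.68 ± 0.17, adjusted p = 0.0251) and scivMSC (-0.80 ± 0.17, adjusted p = 0.0197). Pard6g rose by 0.83 ± 0.17 (adjusted p = 0.00569) and Prkci, the atypical protein kinase C of the same polarity complex, by 0.50 ± 0.14 (adjusted p = 0.0263). The scaffold Magi3 rose by 0.74 ± 0.21 (adjusted p = 0.0273). In scMSC against DNCB Prkci rose further (0.62 ± 0.14, adjusted p = 0.0172), as did Magi3 (1.01 ± 0.21, adjusted p = 0.0118). Marveld2, the tricellular junction protein, was chosen after its values were seen. It was lower in DNCB than in control (-0.81 ± 0.20, adjusted p = 0.0126) and higher in both MSC groups than in DNCB (1.55 ± 0.20 and 1.02 ± 0.20, adjusted p = 0.00199 and 0.0138).

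**Figure D4:**
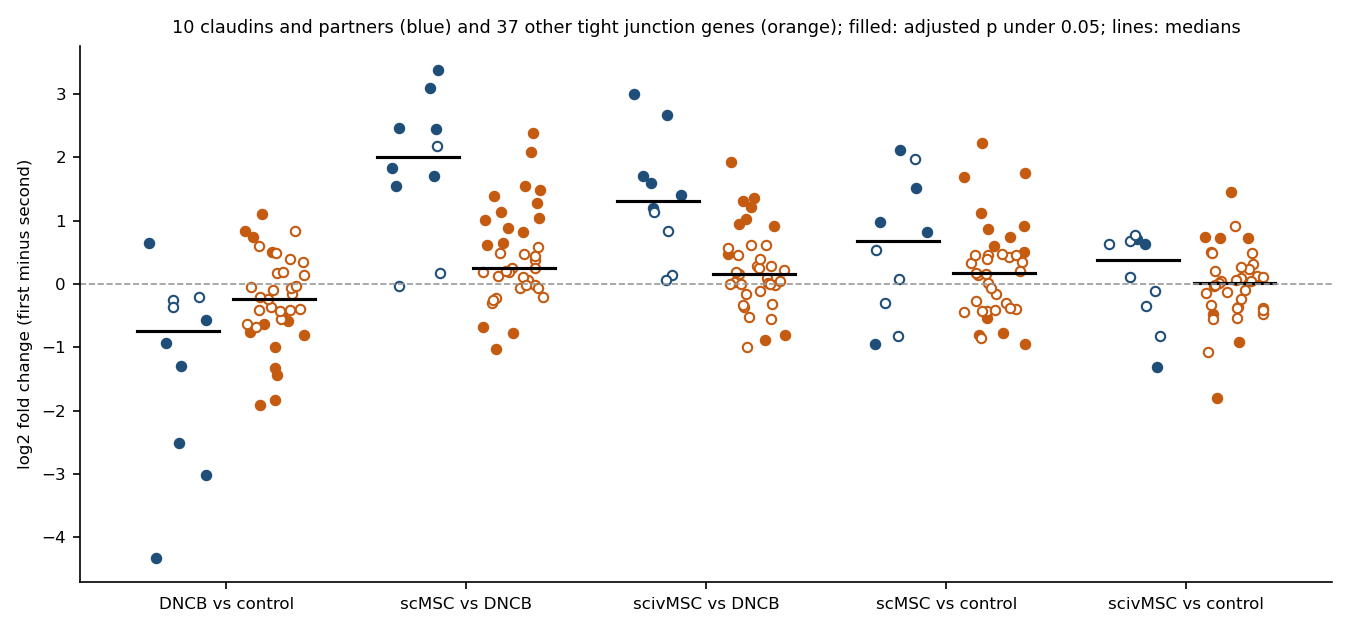
log2 fold change (vertical axis) of the 10 genes (blue) and of 37 other tight junction genes (orange) in 5 comparisons, filled where the adjusted p is under 0.05, with lines at the medians. In scMSC against DNCB the medians are 2.01 and 0.25, and in DNCB against control -0.75 and -0.24.

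The adherens junction, the neighbouring contact built on cadherins, did not follow the claudins downward in DNCB. There 4 of its 8 genes were higher and 0 lower, beside 12.9% and 12.4% of all genes. Cdh1, encoding E-cadherin, was at 45.7 FPKM in control and 62.6 in DNCB (log2 fold change 0.28 ± 0.13, adjusted p = 0.157), and Cdh3, encoding the P-cadherin of basal and hair follicle cells, rose from 5.36 to 19.2 FPKM (1.66 ± 0.28, adjusted p = 0.00225). Neither passed in an MSC group against DNCB.

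Of 14 epithelial transcription factors tested, 3 were higher and 0 lower in DNCB, beside 12.9% and 12.4% of all genes. In scMSC against DNCB 3 were higher and 2 lower, beside 6.95% and 5.77%. In scivMSC against DNCB 0 were higher and 2 lower, beside 4.56% and 3.6%. Snai2, a repressor of the Snail family, rose from 4.44 to 12.7 FPKM in DNCB (log2 fold change 1.34 ± 0.22, adjusted p = 0.00212) and differed from DNCB by -0.44 ± 0.22 in scMSC and -0.36 ± 0.22 in scivMSC, neither passing. Snai1, of the same family and chosen after its values were seen, lay between 8.9 and 13 FPKM in the DNCB libraries, above the other 9, whose group means were 2.45 (controls), 2.7 (scMSC) and 3.04 FPKM (scivMSC). It rose by 1.98 ± 0.24 in DNCB (adjusted p = 0.000724) and fell in scMSC (-2.01 ± 0.24, adjusted p = 0.00199) and scivMSC (-1.84 ± 0.24, adjusted p = 0.00409) against DNCB. Elf3, Elf5, Zeb1 and Zeb2, of the same 14 and likewise picked with their values known, are given by group mean. Elf3 was highest after DNCB (3.95 FPKM, controls 1.01, scMSC 1.63, scivMSC 2.03). Zeb2 was too (3.29 FPKM, controls 1.86, scMSC 1.47, scivMSC 1.42). Zeb1 was nearly level between controls (3.35 FPKM) and DNCB (3.17). Elf5 was highest after scMSC (5.99 FPKM, DNCB 0.52). Grhl1, a grainyhead factor of the epidermis and hair follicle, rose in scMSC against DNCB (0.90 ± 0.18, adjusted p = 0.0101), as did Ovol1 (1.07 ± 0.28, adjusted p = 0.0308). Grhl2, Grhl3 and Klf4 passed in none of the 5 comparisons with DNCB or control.

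Genes whose level followed that of a claudin across the 12 libraries were sought among 14377 genes averaging 1 FPKM or more, by Pearson's r on log2(FPKM + 0.1). The libraries share their 4 groups, so the values describe these samples only. For Cldn1 the closest were Kazn (r = 0.979), encoding the junction-associated protein kazrin, Plagl2 (0.975) and F2rl1 (0.973), encoding the protease-activated receptor PAR2. For Cldn4 they were Pla2g2e (0.988), a secreted phospholipase, Mcc (0.985) and Cpm (0.977), encoding carboxypeptidase M. For Cldn5 they were Cd300lg (0.959), a receptor of capillary endothelium, Rusc2 (0.882) and Aoc3 (0.875), encoding vascular adhesion protein 1. For Cldn7 they were Wif1 (0.928), a Wnt inhibitor, Chchd7 (0.906) and Nab2 (0.893), and for Cldn8 Gm50010 (0.957), St8sia6 (0.950) and Tcf7 (0.944), a Wnt pathway transcription factor.

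Markers of skin appendages moved beside the claudins. The 14 hair shaft and inner root sheath genes in the file summed to 5.28, 13.4 and 353 FPKM in control, between 309 and 998 after DNCB alone, between 7781 and 22312 after scMSC and between 2796 and 6984 after scivMSC. Of them 10 were higher in scMSC and 6 in scivMSC against DNCB, and 14 and 10 against control, with 0 lower, and Krt33b was at 0 in 1 control library. The shares of all genes higher in these comparisons were 6.95%, 4.56%, 10.4% and 7.11%. In scMSC replicate 2, where the sum of the hair genes was highest, Cldn4 and Cldn1 were highest too. Cldn8 and Cldn7 were highest in scMSC replicate 3 (6.57 and 1.17 FPKM), where the hair sum was 11041 FPKM. Control replicate 2, with a hair sum of 353 FPKM, had Cldn4 (36.1 FPKM) and Cldn1 (31.5 FPKM) within the range of the other controls. The part of hair follicle content in the Cldn1 and Cldn4 values was not tested. The 10 sebaceous gland genes moved as Cldn3, Cldn23 and Cgn did between control and DNCB: all 10 were lower in DNCB, with sums of 284 to 337 FPKM in control and 17.1 to 39.8 in DNCB, and 9 and 10 were higher in scMSC and scivMSC against DNCB (163 to 301 and 180 to 508 FPKM), with none at 0. Of all genes 12.4% were lower in DNCB, and 6.95% and 4.56% were higher in scMSC and scivMSC against DNCB. The part of the sebaceous gland was likewise not tested. The 7 skeletal muscle genes summed to 15762 to 22248 FPKM in control and 4369 to 6055 in DNCB. Their sums were 4475 to 10179 FPKM in scMSC and 4714 to 11631 in scivMSC. Against control 6, 5 and 5 of the 7 were lower in DNCB, scMSC and scivMSC, and 0 higher. Of all genes 12.4%, 8.12% and 6.13% were lower there. The part of muscle content in the differences from control, that of Tjp1 among them, was not tested. The 4 stress keratins summed to 484 to 553 FPKM in the controls, 7079 to 8807 after DNCB alone, 683 to 1453 after scMSC and 1152 to 4581 after scivMSC, and the basal keratinocyte genes to 2195 to 3047, 8221 to 10497, 1771 to 2608 and 2907 to 5530 FPKM. The sum of the 10 differentiated keratinocyte genes, of which Krt10 and Krt1 gave most, overlapped between all 4 groups, at 4791 to 11587, 6417 to 10502, 4107 to 8469 and 7160 to 11938 FPKM. Taken singly, 1 of the 10 was higher and 3 lower in DNCB against control, beside 12.9% and 12.4% of all genes. Against DNCB 2 were higher and 0 lower in scMSC and likewise in scivMSC, beside 6.95% and 4.56% of all genes higher. Lor, encoding loricrin of the cornified envelope, was at 1167 to 2380 FPKM in control and 277 to 370 in DNCB (log2 fold change -2.71 ± 0.36, adjusted p = 0.000948), and rose by 1.79 ± 0.35 in scMSC and 2.18 ± 0.36 in scivMSC against DNCB (adjusted p = 0.00841 and 0.00719). Its level thus moved beside those of Cldn3, Cldn23 and Cgn. The others of the list, given outside the rule for naming, went both ways by group mean. Krtdap, Sbsn, Flg, Flg2 and Ivl were lower in DNCB than in control. Tgm3 (12.7 FPKM in control, 53.6 in DNCB), Tgm1 (23.8, 37.3), Krt1 (1129, 2145) and Krt10 (3736, 4976) were higher. The part of late keratinocyte differentiation in the values of Cldn3, Cldn23 and Cgn was not tested.

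**Figure D5:**
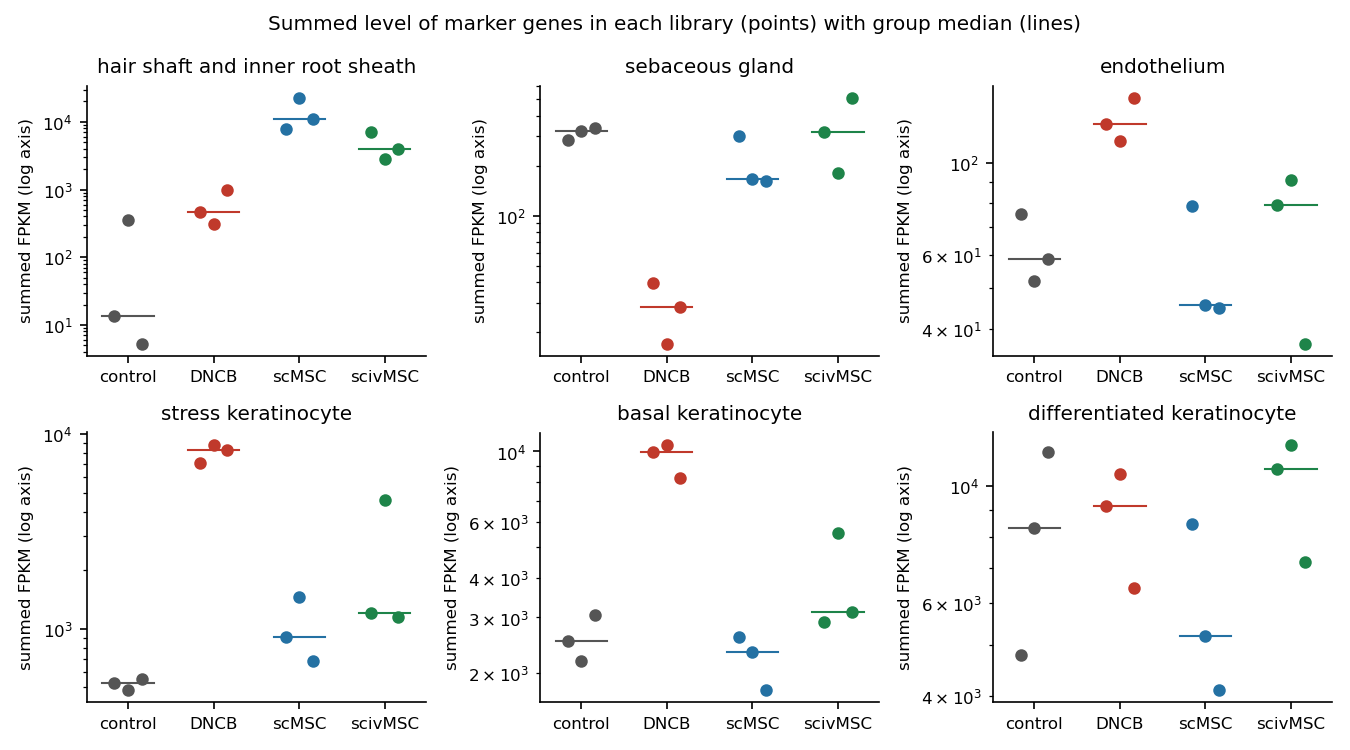
Summed FPKM (log axes) of 6 marker lists in the 12 libraries, with points for libraries and lines for group medians. Hair genes are highest in scMSC, sebaceous genes lowest in DNCB, endothelial, stress and basal keratinocyte genes highest in DNCB, and the sum of the differentiated keratinocyte genes overlaps between groups.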

How the data were processed

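Dorsal skin RNA was sequenced in 12 libraries, with groups taken from the labels. The authors deposited, for every gene, FPKM values and whole-number estimated counts. Of counts from 1 to 18, 38.9% to 41.2% were multiples of 4. How many counts stand for each fragment is not stated in the sources used here. Dividing the counts by 4 was run as an alternative. The submitters' processing notes name HISAT2 2.0, StringTie 1.3.0, Bowtie 0.12.2 and build mm8, yet its gene positions follow GRCm38, since 9 of the 10 members have the same start and end in GENCODE M21. The annotation and the strandedness of counting are not given in the sources used here.

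Estimated counts between 63877153 and 75134001 a library were tested with edgeR 4.0.16 (R 4.3.3, TMM normalization, quasi-likelihood F-test) in 1 model of the 4 groups, on the 21890 genes averaging 0.1 FPKM or more, with Benjamini-Hochberg adjustment over all of them. A gene passed at an adjusted p under 0.05. The biological coefficient of variation was 0.42. Having 3 libraries a group limits precision. Each edgeR p-value sets a group difference against the spread between libraries, estimated in the model of the 4 groups. Levels are FPKM, mean ± SD. Exact permutation tests used scipy 1.17.1.

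The members and the gene lists were chosen with earlier results of these data known. Genes outside the members were named by rule: among other claudins and junction genes, at most 4 in each direction with the largest change among those passing DNCB against control at a mean of at least 1 FPKM; Cdh1, Cdh3, Grhl1, Grhl2, Grhl3, Klf4, Snai2 and Ovol1; the 3 genes most like each of 5 claudins; and up to 3 of each marker list. Exceptions are named as such. Replicate numbers did not pair the libraries. Alternatives were other scalings, filters and pseudocounts, DESeq2 1.42.0, limma 3.58.1 on log2 FPKM, a replicate block and leaving out libraries.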

Additional observations from a re-analysis of the deposited data

How the results depend on the processing

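The 10 genes gave 1320 log2 fold changes under 24 alternatives, of which 1202 kept direction and side of the threshold, 77 lost their call, 17 gained one and 24 turned direction, the last only among values that did not pass. Over 2-fold, 4 members passed in DNCB against control, 2 in scMSC against control and 1 in scivMSC against control. The shares of all genes were 14.2%, 9.32% and 6.85%. Fitting 6 libraries alone left 1 in scivMSC against control, beside 5.04% of all genes. Leaving out the 3 libraries that stood apart, chosen after seeing the data, left 3 in scivMSC against DNCB and 0 in scivMSC against control, with 1 scivMSC library assumed to vary like the rest. Leaving out 1 library at a time gave 4 to 7 members in DNCB against control, 7 to 8 in scMSC against DNCB, 4 to 6 in scivMSC against DNCB, 4 to 6 in scMSC against control, 1 to 3 in scivMSC against control and 0 between the MSC groups. The shares of all genes ran from 17.4% to 26.3%, 7.04% to 13.9% and 2.55% to 9.05% in the first 3 of these comparisons. In the last 3 they ran from 10.6% to 19.7%, 6.12% to 14.1% and 0.00457% to 0.0228%. Replicate numbers did not pair the libraries (correlations of same-numbered deviations from -0.21 to 0.149, 1 of 18 pairs over 0.1). With a replicate block the counts were 5, 7, 5, 4, 2 and 0 in the same order of comparisons. The shares of all genes were 22.5%, 9.86%, 5.39%, 15.3%, 10.9% and 0.00457%.

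Values that turned were small or poorly measured, and the cause was not tested. For Cldn5, leaving out 1 library gave -0.49 to 0.01 in DNCB against control, -0.58 to 0.17 in scMSC against DNCB, -0.11 to 0.37 in scivMSC against DNCB, -0.37 to 0.15 in scivMSC against control and -0.07 to 0.72 between the MSC groups. In scivMSC against control Cldn5 was also 0.07 with library size alone and without the 3 libraries, and 0.05, 0.05 and 0.06 with limma at pseudocounts of 0.1, 1 and 0.01. For Cldn7 the ranges were -0.68 to 0.34 in DNCB against control and -0.06 to 1.17 in scivMSC against control, and without the 3 libraries it was 0.34 in DNCB against control and -0.28 in scivMSC against DNCB. Cldn3 ranged from -0.33 to 0.28 in scMSC against control, Tjp1 from -0.01 to 0.19 in scivMSC against DNCB, and Ocln from -0.18 to 0.34 in scivMSC against control, where it was -0.02 without the 3 libraries. Low counts limit Cldn7 above all.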
